A study of Mus musculus with 2 samples.

Results

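Afp, Ttr, Apcs and C8g are 4 genes for proteins that the liver secretes into blood plasma, and their transcripts were read here in fetal mouse intestinal epithelium. They were 4 of the 25663 genes in a table of 11871 cells. They were chosen by measured values, namely their levels in this same table, and the Fabp1 and Fabp6 levels used to group the cells came with that choice. Everything below is therefore a description. The cells came from sorted small intestine epithelium of mouse embryos at E18.5, on a background labelled C57BL6/J. The sample details give 5 backcross generations for each library. The labels name 1 Tet3KO library and 1 Control library, each made from cells of 2 pooled embryos, with 6000 cells used per library and fixation in 90% methanol. In the Tet3 knockout, exon 5 of Tet3 is deleted in the germline, which puts a stop codon in exon 6. The other genotype is labelled only as Control.

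Alpha-fetoprotein (Afp) is the main plasma protein of the fetus and is made by yolk sac and fetal liver. Transthyretin (Ttr) carries thyroxine and holds the retinol-binding protein Rbp4 in the blood. Serum amyloid P component (Apcs) is a pentraxin of innate immunity, and C8g is the gamma chain of complement component C8, a lipocalin. Fabp1, the liver-type fatty acid binding protein, is also abundant in enterocytes, the absorptive cells of the gut. Fabp6 is the ileal bile acid binding protein and marks absorptive cells of the distal small intestine.

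The start regions of the genes are shown because transcription of liver-type genes is classically tied to short motifs close to the start. Each line gives the 250 bases before a start from RefSeq on build GRCm38.p6, read 5′ to 3′ in the direction of the gene, and capitals mark a match to a searched motif. The table of RefSeq windows used here matched 3 of the 4 genes. C8g had 2, of which the one at the 5′ end of the gene is shown.
Afp chr5:90490464-90490713 (+): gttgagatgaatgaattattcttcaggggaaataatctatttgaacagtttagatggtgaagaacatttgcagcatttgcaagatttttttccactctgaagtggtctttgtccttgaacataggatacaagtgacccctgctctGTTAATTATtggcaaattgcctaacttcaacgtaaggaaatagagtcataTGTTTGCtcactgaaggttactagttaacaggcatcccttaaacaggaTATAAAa
Apcs chr1:172895055-172895304 (-): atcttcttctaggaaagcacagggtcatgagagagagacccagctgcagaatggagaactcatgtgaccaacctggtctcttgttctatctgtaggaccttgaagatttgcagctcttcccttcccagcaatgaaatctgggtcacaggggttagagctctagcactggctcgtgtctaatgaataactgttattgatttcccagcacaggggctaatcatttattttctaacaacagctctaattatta
C8g chr2:25501720-25501969 (-): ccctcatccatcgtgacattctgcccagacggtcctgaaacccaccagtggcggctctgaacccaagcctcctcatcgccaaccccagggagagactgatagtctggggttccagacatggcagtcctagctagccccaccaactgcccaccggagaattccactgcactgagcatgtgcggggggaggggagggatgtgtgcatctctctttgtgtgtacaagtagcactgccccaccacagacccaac
Motifs were searched on both strands of the whole 300-base windows, which also hold 50 bases after the start. The Afp window held the longer liver promoter motif GTTAATNAT at bases 105 to 97 before the start, the letters printed as the earliest capitals, and 0.801% of all 32851 promoter windows held that motif. The shorter form GTTAAT lies inside it and was in 7.1% of windows. Afp also held the FOXA motif TGTTTGC at bases 55 to 49, found in 5.07% of windows, and TATAAA at bases 7 to 2, found in 13.6%. These bases are counted from the RefSeq start, and the GENCODE start of Afp, chr5:90490737, lies further downstream. None of the searched letters was in the Apcs window or in either C8g window. These were the motifs above, the other FOXA form TGTTTAC (3.65% of windows), the HNF4 core CAAAGTCCA (0.475%), the CEBP motif TTGCNNCAA (2.08%), the CDX motif TTTATNG (10.9%) and the GATA motif AGATAA (11.2%). A match describes the letters and not a bound site.

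In the GENCODE annotation of GRCm38, Afp (ENSMUSG00000054932) is a protein-coding gene at chr5:90490737-90508907 on the plus strand. It stands between Alb, at chr5:90460897-90476602, and Afm, at chr5:90518932-90553543, which are 2 other genes of the albumin family, and it overlaps Gm43449 on the opposite strand. Apcs (ENSMUSG00000026542) is at chr1:172893961-172895041 on the minus strand and overlaps no other annotated gene. C8g (ENSMUSG00000015083) is at chr2:25498651-25501719 on the minus strand and overlaps Fbxw5 on the opposite strand. Whether the counting used strand is not given in the sources used here, so Afp and C8g counts are uncertain in that respect. Fbxw5 averaged 0.268 CP10K in Fabp1-high and 0.261 CP10K in Fabp1-low cells of set 0, and its correlation with C8g over cells was -0.02 in set 0 and 0.05 in set 1. In set 1 Fbxw5 averaged 0.271 CP10K in Fabp1-high and 0.233 CP10K in Fabp1-low cells. Whether Fbxw5 reads entered the C8g counts was not tested.

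Levels are in CP10K, counts per 10000 of a cell's total on a linear scale, as the authors deposited them. Barcodes end in 0 or in 1, and cells are grouped by that ending: set 0 has 5933 of them and set 1 has 5938. Since the labels do not say which ending belongs to which library, genotypes were not compared. There are no replicates, and no p-value is given. The sets had 818 barcodes in common, which is 13.8% of set 1, and for 813 of them the set 0 copy had more unique molecular identifiers (UMIs), with a median set 1 over set 0 ratio of 0.263. Afp of the paired barcodes correlated at 0.97 over log2(CP10K + 1), Ttr at 0.96, Apcs at 0.78 and C8g at 0.68. Set 1 is given without these cells (5120 left) unless stated. Recovered depth was a median of 23657 UMIs per cell in set 0 and 22374 in set 1, with 4474 and 4459 genes.

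All 4 transcripts were detected in both sets, at levels that fell into an abundant and a scarce pair. Afp averaged 6.18 CP10K in set 0 and 4.45 CP10K in set 1. Ttr averaged 9.28 and 9.63 CP10K in sets 0 and 1. Apcs averaged 0.215 and 0.113 CP10K, and C8g 0.253 and 0.0981 CP10K. Levels of different genes are not corrected for transcript length, which 3′ counting makes less of a factor, so each gene is mainly compared with itself. Afp, Apcs and C8g were lower in set 1 than in set 0, while Ttr was close to equal. The median cell held 0.498 CP10K of Afp in set 0 and 0 in set 1, while the highest cells held 248 and 293 CP10K.

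A small share of cells carried most of each transcript. The 10% of cells with most Afp held 69.1% of its UMIs in set 0 and 90.0% in set 1. For Ttr the 10% with most held 53.1% and 65.5%. Apcs had 82.4% and 80.9% of its UMIs in its top 10% and C8g 67.4% and 69.7%. Unthinned, Apcs was detected in only 18.4% of cells of set 0 and 15.7% of set 1, and C8g in 28.9% and 17.9%. Sparse counts alone can give such shares, so the scarce genes are not compared with Afp and Ttr here. Cells were ranked by UMIs, which favours deeper cells.

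The label "liver-type" was set against hepatocyte markers. Alb, the most abundant liver transcript and the neighbour of Afp, was found as 6 UMIs in all cells of set 0 and 7 in set 1, at 0.000359 and 0.000497 CP10K. In the 554 cells of set 0 and 307 of set 1 with Afp above 20 CP10K there were 2 and 0 Alb UMIs, beside 61808 and 46203 Afp UMIs. Of 24 hepatocyte markers, 15 were in the table, and 8 of these in set 0 and 9 in set 1 averaged under 0.01 CP10K, while none was at 0. The highest were Fgb, a fibrinogen chain, at 0.434 CP10K in set 0 and Serpina1a, an alpha-1-antitrypsin gene, at 0.814 CP10K in set 1. Summed over the list, hepatocyte markers were 1.35 CP10K in Fabp1-high and 0.937 CP10K in Fabp1-low cells of set 0, and 1.84 and 0.883 CP10K in set 1. Much of the Fabp1-high sums was Serpina1a, at 0.707 and 0.0269 CP10K in these classes of set 0 and 1.36 and 0.11 CP10K in set 1. Fgb ran the other way, at 0.364 and 0.5 CP10K in set 0 and 0.304 and 0.4 CP10K in set 1. No direction of the list is read from the sums. Afp-rich cells also carried Apoa1, an apolipoprotein that enterocytes and liver both make, at 192 CP10K in set 0 and 186 CP10K in set 1.

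**Figure D1:**
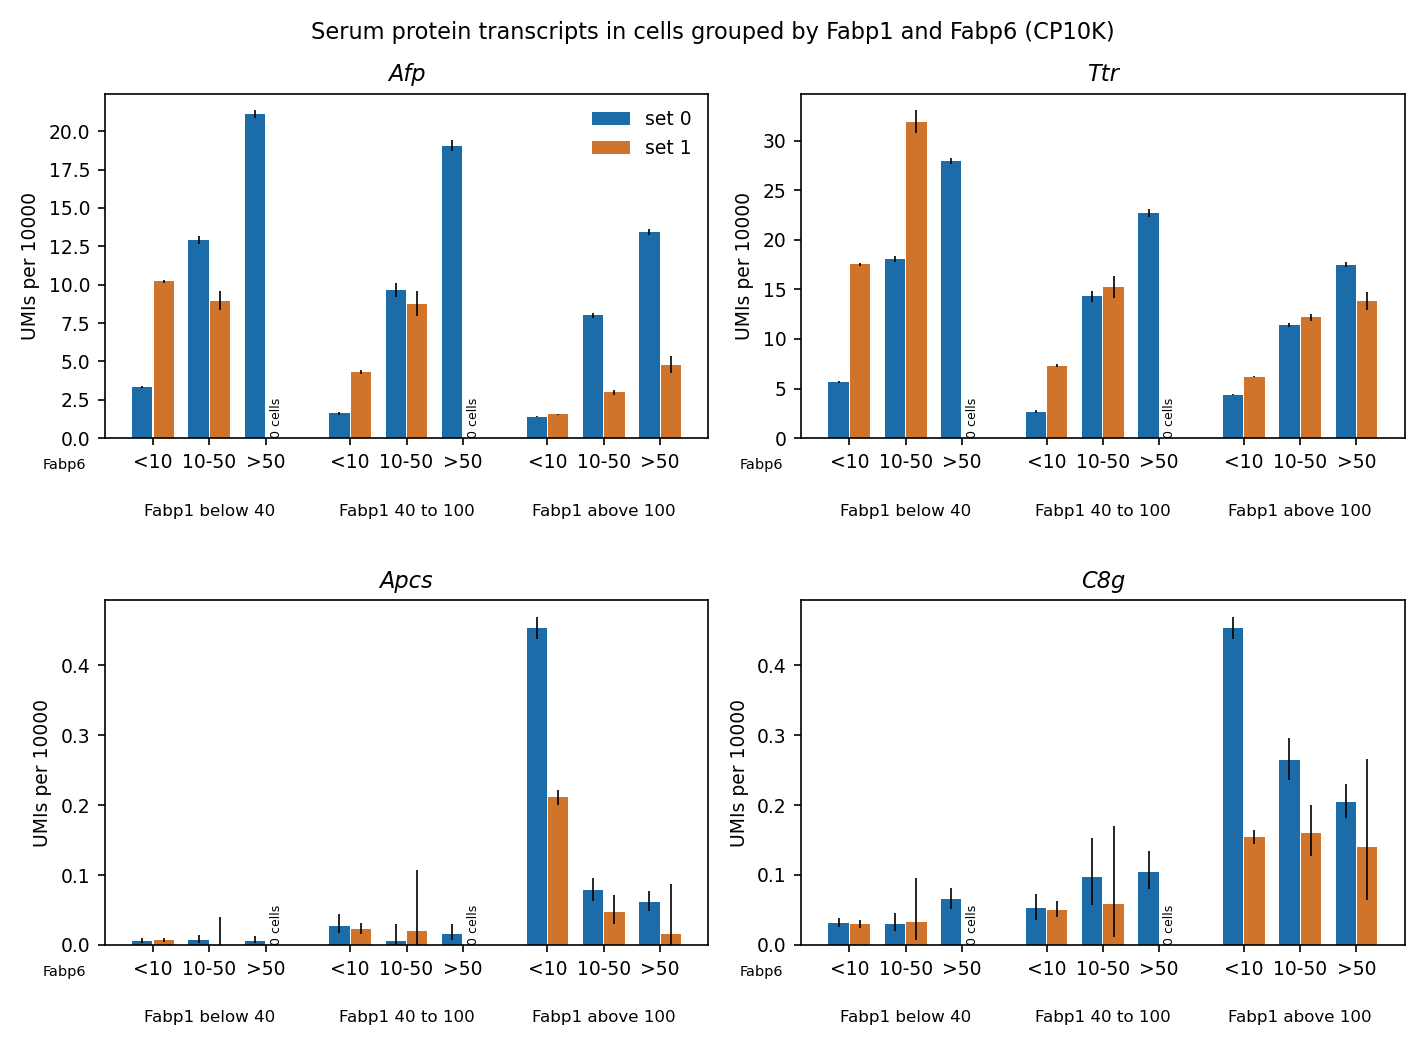
Summed UMIs per 10000 of each gene (vertical axis, starting at 0) in cells grouped by Fabp1 (3 blocks, CP10K) and Fabp6 (3 bars per block, CP10K), with set 0 in blue and set 1 in orange. Error bars are exact Poisson 95% intervals and cover counting error only. In set 0, Afp and Ttr climb with Fabp6 both where Fabp1 is below 40 and where it is above 100. In set 1 they stand higher where Fabp1 is below 40 than where it is above 100. Apcs and C8g stand highest where Fabp1 is above 100.

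Cells were grouped by Fabp1 below 40, 40 to 100 and above 100 CP10K, which held 2094, 485 and 3354 cells of set 0 and 1770, 564 and 2786 of set 1. Apcs was close to absent from Fabp1-low cells and rich in Fabp1-high ones. It averaged 0.374 CP10K in Fabp1-high and 0.00729 CP10K in Fabp1-low cells of set 0, a log2 ratio of 4.47 from 3457 and 30 UMIs. In set 1 Apcs averaged 0.199 CP10K in Fabp1-high and 0.00708 CP10K in Fabp1-low cells, a log2 ratio of 3.62. Its middle class lay between, at 0.0178 CP10K in set 0 and 0.0238 CP10K in set 1. Ratios here are of mean CP10K with 0.01 added to both means, which pulls ratios of scarce genes toward 0.

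C8g followed the same order with a higher floor. It averaged 0.413 CP10K in Fabp1-high and 0.0394 CP10K in Fabp1-low cells of set 0, a log2 ratio of 3.10. In set 1 it averaged 0.152 and 0.0298 CP10K in these classes, a log2 ratio of 2.02. The middle class held 0.0755 CP10K in set 0 and 0.0465 CP10K in set 1. C8g of Fabp1-high cells was thus lower in set 1, whereas Fabp1-low cells of the sets were near each other.

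Afp ran the other way. It averaged 3.63 CP10K in Fabp1-high and 9.12 CP10K in Fabp1-low cells of set 0, a log2 ratio of -1.33, and 1.52 and 9.12 CP10K in set 1, a ratio of -2.57. Ttr averaged 6.93 CP10K in Fabp1-high and 12.5 CP10K in Fabp1-low cells of set 0 (log2 ratio -0.85), and 6.38 and 15.7 CP10K in set 1 (-1.30). In the middle class Afp held 11.1 CP10K in set 0 and 4.25 CP10K in set 1, and Ttr 11.7 and 6.75 CP10K. The classes overlapped widely cell by cell, because the median Fabp1-high cell held 0.525 CP10K of Afp in set 0 and 0 in set 1, against 0.388 and 0 CP10K for the median Fabp1-low cell. The higher means of Afp in Fabp1-low cells came from a minority of cells. With the shared barcodes put back into set 1, the log2 ratios were -2.18 for Afp, -1.25 for Ttr, 3.69 for Apcs and 2.18 for C8g.

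Markers of other cell types moved along Fabp1 too. All 12 proliferation markers were in the table, and their summed level was 1.47 CP10K in Fabp1-high and 7.91 CP10K in Fabp1-low cells of set 0, and 1.6 and 9.5 CP10K in set 1. The 8 goblet markers summed to 0.969 and 8.89 CP10K in set 0 and to 0.477 and 6.69 CP10K in set 1, and the 12 enteroendocrine markers to 0.897 and 6.36 CP10K and to 0.567 and 6.54 CP10K, with none at 0. Without the cells classed by such markers, an alternative chosen after the values were seen, the log2 ratio was 4.47 in set 0 and 3.58 in set 1 for Apcs, and 2.97 and 1.98 for C8g. For Afp it was then -1.65 in set 0 and -2.90 in set 1, and for Ttr -1.15 and -1.60. The ratios of Afp and Ttr were larger in size without those cells, and those of Apcs and C8g about as large.

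Counted as calls, 2 of the 4 genes (Apcs and C8g) were at least 2-fold higher in Fabp1-high cells of set 0, where 4.94% of all 5606 genes tested were, and 1 (Afp) was at least 2-fold lower, where 12.3% were. In set 1, Apcs and C8g were higher, against 5.2% of 5690 genes, and Afp and Ttr were lower, against 11.1%. Genes were tested when 1 of the classes averaged 0.2 CP10K or more, and in set 1 Apcs and C8g missed that minimum in both, so they are counted here without being among the genes tested. Since these values chose the genes, nothing is read from the counts. The median over all genes tested was -0.18 in set 0 and -0.15 in set 1.

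**Figure D2:**
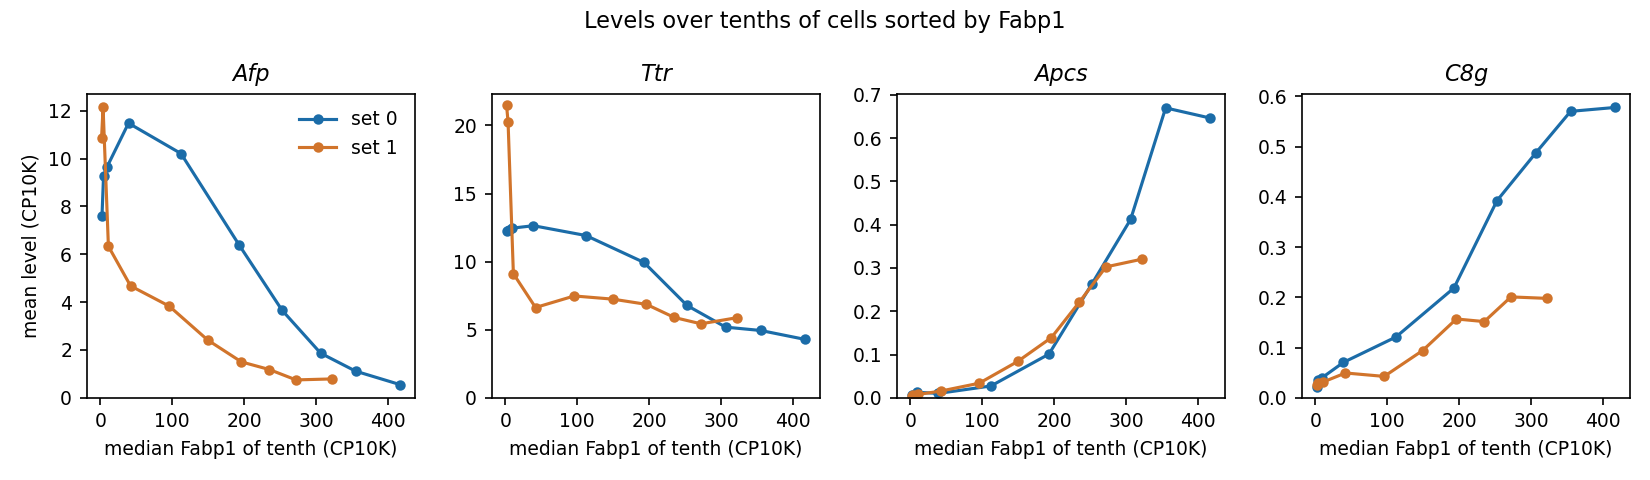
Mean CP10K of each gene (vertical axis) in 10 equal groups of cells sorted by Fabp1, placed at the median Fabp1 of the group (horizontal axis, CP10K), for set 0 (blue) and set 1 (orange). Apcs and C8g climb along Fabp1 in both sets, while Afp peaks in the fourth group of set 0 and in the second of set 1.

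Sorting cells by Fabp1 into 10 equal groups showed lower Afp and higher Apcs in the upper groups than in the lower ones. In set 0, Afp held 7.59 CP10K in the lowest group, reached 11.5 CP10K in the fourth, at a median Fabp1 of 39.2 CP10K, and was down to 0.555 CP10K in the highest. In set 1 its peak of 12.1 CP10K was already in the second group, at a median Fabp1 of 3.87 CP10K, and the highest group held 0.79 CP10K. Ttr varied less, and its highest group still held 4.29 CP10K in set 0 and 5.88 CP10K in set 1. Apcs stayed under 0.03 CP10K through the fifth group of set 0 and ended at 0.646 CP10K. Proliferating cells made up 26.1% of the lowest group of set 0 and 24.6% of that of set 1, and 0% of the highest groups.

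The cells just inside and just outside the limits show what the grouping divides. Those of set 0 with Fabp1 up to 10 CP10K above 40 averaged 15.7 CP10K of Afp, and those up to 10 below averaged 13.4 CP10K, while Ttr stood at 10.9 and 16.5 CP10K there. At the limit of 100, Apcs averaged 0.0266 CP10K just above and 0.0292 CP10K just below. For Fabp6 in set 0, Afp averaged 14.2 CP10K just above 50 and 14.8 CP10K just below.

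In set 0, Fabp6 separated cells by Afp and Ttr more than Fabp1 did, and by Apcs and C8g less. Both contrasts are made on the same cells. The 1108 cells with Fabp6 above 50 CP10K averaged 18.1 CP10K of Afp and the 4108 cells with Fabp6 below 10 averaged 2.1 CP10K, a log2 ratio of 3.10. For Ttr the means were 22.9 CP10K in Fabp6-high and 4.6 CP10K in Fabp6-low cells, a log2 ratio of 2.31. Apcs averaged 0.0229 and 0.299 CP10K in the same classes (-3.24), and C8g 0.124 and 0.307 CP10K (-1.24). Afp and Ttr were thus richest in the cells with the distal marker, and Apcs and C8g in those without it. C8g turned round within the lower Fabp1 classes of set 0, with log2 ratios of 0.88 below 40 and 0.74 at 40 to 100, and Apcs stood at -0.10 below 40 and -1.12 at 40 to 100. Among Fabp1-high cells the ratios were -1.21 for C8g and -3.10 for Apcs. At least 2-fold higher were 2 of the 4 genes, against 3.53% of 5409 genes tested, and 2 were at least 2-fold lower, against 5.1%.

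Set 1 held almost no Fabp6-high cells. Only 27 had Fabp6 above 50 CP10K, all of them with Fabp1 above 100, and they averaged 5.22 CP10K of Afp, against 4.45 CP10K in 4863 Fabp6-low cells. Ttr averaged 13.5 CP10K in Fabp6-high and 9.36 CP10K in Fabp6-low cells of set 1, Apcs 0.0103 and 0.118 CP10K, and C8g 0.115 and 0.0964 CP10K. By this contrast 0 of the 4 genes were at least 2-fold higher, against 4.6% of 5633 genes tested, and Apcs, below the minimum for testing, was at least 2-fold lower, against 9.85%. Its mean in Fabp6-high cells rests on 1 UMI. With the shared barcodes put back, set 1 had 206 Fabp6-high cells, of which 179 were shared, and Afp and Ttr were then both at least 2-fold higher, with log2 ratios of 1.65 and 1.19. Within Fabp1-high cells of set 1 alone, the ratio was 1.90 for Afp and 1.19 for Ttr. With the shared barcodes, Afp averaged 13.2 CP10K in Fabp6-high and 4.2 CP10K in Fabp6-low cells of set 1. Shared barcodes classed as Fabp6-high averaged 14.4 CP10K of Afp in set 1 (179 cells) and 13.6 CP10K in set 0 (189 cells). Fabp6 of the paired barcodes correlated at 0.99. The values of set 1 with shared barcodes are therefore not read as separate from set 0. Without the shared barcodes, the Fabp6-high result of set 1 rests on 27 cells and depended on which cells they were set against.

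Taking Fabp1 and Fabp6 together, on the scale of summed UMIs per 10000 with exact Poisson 95% intervals, placed each gene more closely. Among Fabp1-low cells of set 0, Afp stood at 3.34 (3.28 to 3.41) with Fabp6 below 10, at 12.9 (12.7 to 13.2) with Fabp6 of 10 to 50 and at 21.1 (20.9 to 21.4) with Fabp6 above 50. Among Fabp1-high cells it stood at 1.39 (1.36 to 1.41), 8.01 (7.85 to 8.18) and 13.4 (13.2 to 13.6) in the same order. Afp thus climbed with Fabp6 at either end of the Fabp1 range. Ttr did the same, at 5.69, 18.1 and 28.0 UMIs per 10000 among Fabp1-low cells and at 4.38, 11.4 and 17.5 among Fabp1-high cells of set 0.

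The sets differed in cells low for both markers. Afp stood at 3.34 UMIs per 10000 in the 1319 such cells of set 0 and at 10.2 (10.1 to 10.3) in the 1729 of set 1. These cells held 10.7% of all Afp UMIs of set 0 and 67.0% of those of set 1. Of Ttr UMIs they held 11.7% in set 0 and 52.1% in set 1. In set 0 the largest share of Afp UMIs, 26.1%, was instead in Fabp1-low cells with Fabp6 above 50, a class with 476 cells in set 0 and 0 in set 1. The place of Afp along Fabp6 therefore differed between the sets, and whether this goes with genotype, embryo or dissection cannot be told apart here.

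Apcs kept to 1 class. In Fabp1-high cells it stood at 0.454 UMIs per 10000 (0.438 to 0.469) with Fabp6 below 10, at 0.0785 (0.0632 to 0.0964) with Fabp6 of 10 to 50 and at 0.0618 (0.0492 to 0.0766) with Fabp6 above 50 in set 0. The class with Fabp1 above 100 and Fabp6 below 10 held 93.4% of Apcs UMIs in set 0 and 94.5% in set 1, with 42.9% and 50.5% of the cells. C8g was less confined, with 78.7% of its UMIs in that class in each set. Among Fabp1-high cells of set 0, C8g stood at 0.454, 0.264 and 0.205 UMIs per 10000 from low to high Fabp6, and in set 1 it hardly varied, at 0.154, 0.16 and 0.14, the last with an interval of 0.064 to 0.266. Across Fabp6 in set 0, Apcs thus spanned a wider range than C8g.

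Shares of cells with a UMI, after thinning every cell to 8000 UMIs, gave the same order along Fabp1 for Apcs and C8g. Apcs was found in 17.8% (Clopper-Pearson 95% interval 16.5 to 19.1) of Fabp1-high and 0.581% (0.301 to 1.01) of Fabp1-low cells of set 0, and in 11.9% and 0.402% in set 1. Its share in proliferating cells, a class that holds some Fabp1-high cells, was 1.79% in set 0 and 0.767% in set 1, at median depths of 24814 and 24035 UMIs before thinning, beside 25625 and 24094 in Fabp1-high and 19960 and 19681 in Fabp1-low cells. In the proliferating cells low for both Fabp markers, 3 of 384 thinned cells of set 0 had an Apcs UMI, or 0.781% (0.161 to 2.27), and 0 of 346 in set 1, which allows up to 1.06%. The Apcs share of Fabp1-low cells was within these intervals, and is not read as expression. For C8g the shares were 21.4% in Fabp1-high and 2.9% in Fabp1-low cells of set 0, and 10.3% and 3.04% in set 1, with 1.57% and 2.56% in proliferating cells. Unthinned, 43.6% of Fabp1-high cells of set 0 had a C8g UMI and 31.1% an Apcs UMI.

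Afp was found in 45.6% (43.9 to 47.2) of thinned Fabp1-high cells and 43.2% (41.1 to 45.4) of Fabp1-low cells of set 0, so its share hardly differed where its mean did. In set 1 the shares were 28.0% in Fabp1-high and 33.9% in Fabp1-low cells. Of Fabp6-high cells of set 0, 88.7% had an Afp UMI and 97.3% a Ttr UMI, against 28.8% and 63.2% of Fabp6-low cells. In proliferating cells Afp was found in 14.6% in set 0 and 11% in set 1, and Ttr in 37.0% and 51.4%. Low shares of Afp and Ttr near those are not read as expression.

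Cells classed by markers of other epithelial types were few, or poor in the 4 transcripts. Proliferating cells (Mki67 plus Top2a of at least 2 CP10K) averaged 0.542 CP10K of Afp in set 0 and 0.443 CP10K in set 1, and 0.0266 and 0.0116 CP10K of Apcs. Goblet-like cells, after the mucus makers, numbered 67 in set 0 and 30 in set 1 by Muc2, Spink4 and Agr2, and averaged 3.25 and 4.66 CP10K of Afp and 0.0858 and 0.0136 CP10K of C8g. Enteroendocrine-like cells, after the hormone makers, numbered 23 and 17 and averaged 6.06 and 6.96 CP10K of Ttr. With so few cells these are values of those cells only.

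Cells low for both Fabp markers were a mixture. Their proliferating members held 0.136 CP10K of Afp in set 0 and 0.339 CP10K in set 1, while those in no marker class held 5.12 and 11.5 CP10K. Within that class, 68 cells of set 0 and 221 of set 1 had Afp above 20 CP10K. These averaged 45.8 and 68.0 CP10K of Ttr, against 4.63 and 9.55 CP10K in the others, and 0 and 0.00988 CP10K of Apcs. Enterocyte transcripts differed in both directions. Apoa1 averaged 159 CP10K, against 43.2 CP10K in the others of set 0, and 174 against 52.7 CP10K in set 1. Apoa4 averaged 50.5 against 12 CP10K in set 0 and 70.6 against 17.9 CP10K in set 1, and Fabp2, the intestinal fatty acid binding protein, 47.2 against 28.9 CP10K and 99.2 against 44.7 CP10K. Anpep, a brush border aminopeptidase, was lower, at 2.31 against 3.18 CP10K in set 0 and 2.64 against 4.03 CP10K in set 1, and so was Krt20, at 0.104 against 0.339 CP10K and 0.0613 against 0.27 CP10K. Fabp1 itself averaged 5.65 against 9.29 CP10K and 7.05 against 10.8 CP10K. Fabp6 stayed at 2.59 CP10K in set 0 and 0.891 CP10K in set 1. Among all Afp-rich cells, 63.5% had Fabp6 above 50 in set 0, and 96.4% had it below 10 in set 1.

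Afp and Ttr rose and fell together from cell to cell. Over log2(CP10K + 1) their Pearson correlation was 0.68 over 5933 cells of set 0 and 0.66 over 5120 of set 1. Cells share their library and scaling, so these correlations are descriptions. Ttr averaged 32.2 CP10K in cells with Afp above 20 and 2.53 CP10K in cells with Afp at 0 in set 0, and 60.3 and 3.07 CP10K in set 1. Within Fabp1-low cells the correlation was 0.76 in set 0 and 0.77 in set 1, and within Fabp1-high cells 0.56 and 0.50. It was lower within Fabp6 classes of set 0, at 0.57 below 10, 0.44 at 10 to 50 and 0.35 above 50. In set 1 it was 0.67, 0.38 and 0.36 in the same order, the last over 27 cells. Ttr was the wider of the pair: of thinned cells with an Afp UMI, 90.3% in set 0 and 88.5% in set 1 also had a Ttr UMI, whereas 56.3% and 37.1% of Ttr-positive cells had an Afp UMI.

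**Figure D3:**
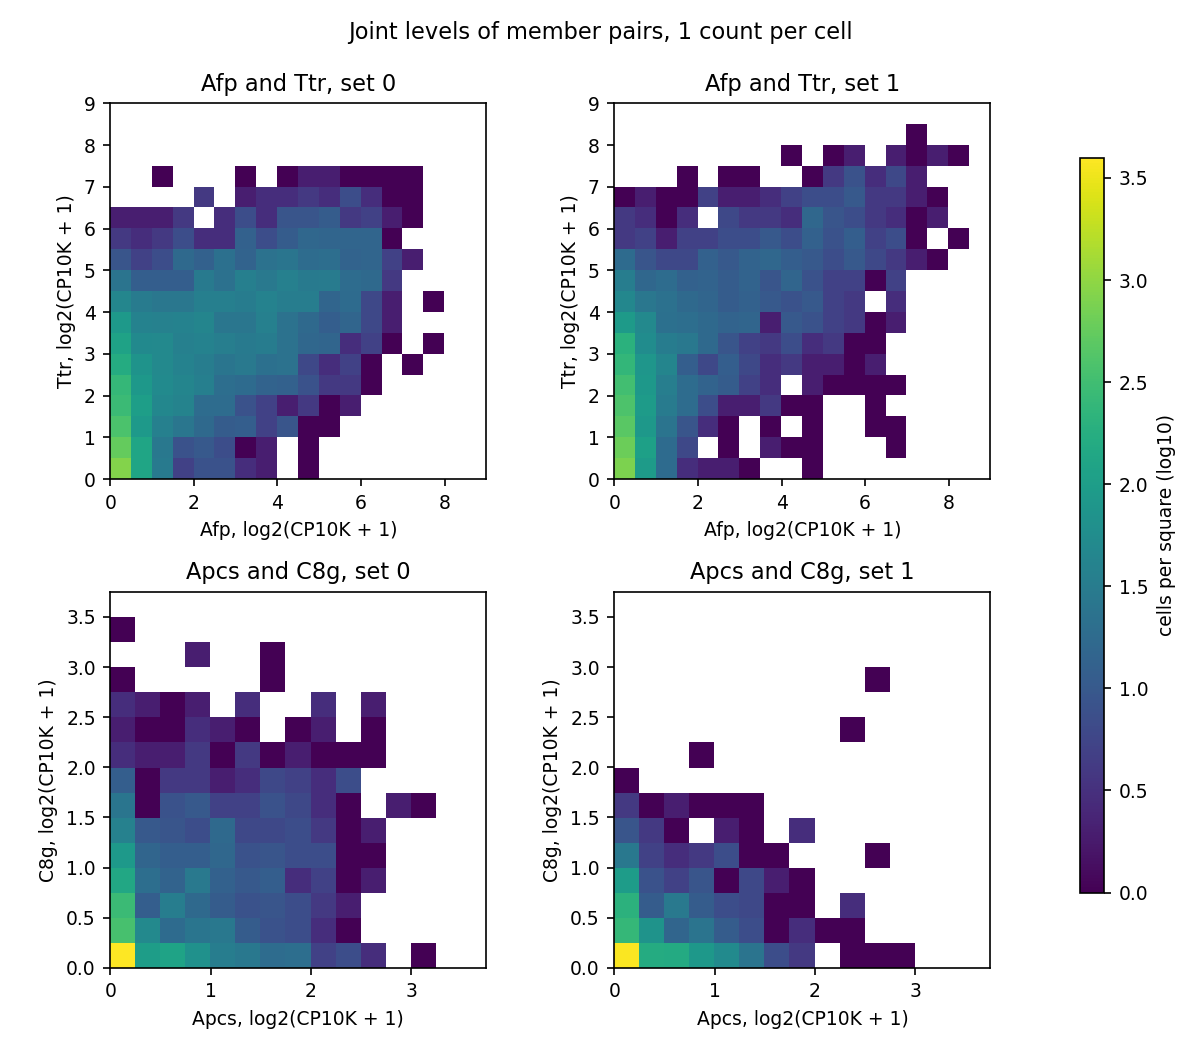
Number of cells per square (colour, log10) by the levels of 2 genes on log2(CP10K + 1) axes, for Afp and Ttr (upper row) and Apcs and C8g (lower row), set 0 left and set 1 right. Afp-rich cells lie along high Ttr, while many Ttr-rich cells hold little Afp, and most cells lie at or near 0 for Apcs and C8g.

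Apcs and C8g also went together. Their levels were far lower than those of Afp and Ttr, so counting noise weighs more on their correlation, and the pairs are not ranked. It was 0.45 in set 0 and 0.24 in set 1, with 0.32 and 0.14 after thinning, and within Fabp1-high cells it was 0.40 and 0.20. In Fabp1-low cells, where Apcs is close to absent, it was -0.00437 in set 0 and -0.02 in set 1. Within Fabp6 below 10, 10 to 50 and above 50 it was 0.47, 0.21 and 0.12 in set 0. In set 1 it was 0.25, 0.14 and 0.19 there, the last over 27 cells. Of thinned cells with an Apcs UMI, 41.4% (37.4 to 45.4) in set 0 and 18.9% (14.9 to 23.4) in set 1 had a C8g UMI, against 10.4% and 6.13% of Apcs-negative cells. Across the pairs, Afp and Apcs correlated at -0.17 in set 0 and -0.11 in set 1, and Afp and C8g at -0.03 and -0.04, all weak. Cells with Apcs above 1 CP10K averaged 0.827 CP10K of Afp, against 7.23 CP10K in cells with Apcs at 0 in set 0, and 0.403 against 5.08 CP10K in set 1. Of those Apcs-rich cells, 99.5% in set 0 and 98.1% in set 1 had Fabp1 above 100.

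The genes most like each of the 4 were ranked by the lower of their correlations in the sets, among 4789 genes. For Afp these were Gpx3, a plasma glutathione peroxidase (0.74 in set 0, 0.71 in set 1), Ttr, Lgmn, a lysosomal protease (0.76, 0.66), Guca2a, the gut peptide guanylin (0.60, 0.66), and Naaladl1 (0.61, 0.58). Gpx3 also led for Ttr (0.78, 0.72), followed by Afp, Meltf (0.68, 0.65), the folate receptor Folr1 (0.70, 0.65) and the lysosomal sialidase Neu1 (0.66, 0.62). Most unlike both was Ccl25, the small intestinal chemokine, at -0.53 and -0.56 for Afp and -0.58 and -0.56 for Ttr. After it came Mgst3 and Ppa1 for Afp, and Krt19 and Mgst3 for Ttr.

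For Apcs the list was Mme, the peptidase neprilysin (0.62 in set 0, 0.42 in set 1), the water channel Aqp8 (0.54, 0.39), Leap2, a secreted peptide of liver and gut (0.46, 0.39), Abhd3 (0.42, 0.37) and Cgref1 (0.47, 0.37). Leap2 led for C8g (0.50, 0.35), with Serpina1a (0.54, 0.33), the creatine pathway enzyme Gatm (0.40, 0.32), guanine deaminase Gda (0.46, 0.31) and the peptidase Ace (0.44, 0.31). Among the most unlike were genes of the ribosome, with Rpl14 (-0.40 in set 0, -0.35 in set 1) and Rpl4 (-0.43, -0.34) for Apcs, and Rps18 (-0.50, -0.33) and Rack1 (-0.50, -0.33) for C8g.

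**Figure D4:**
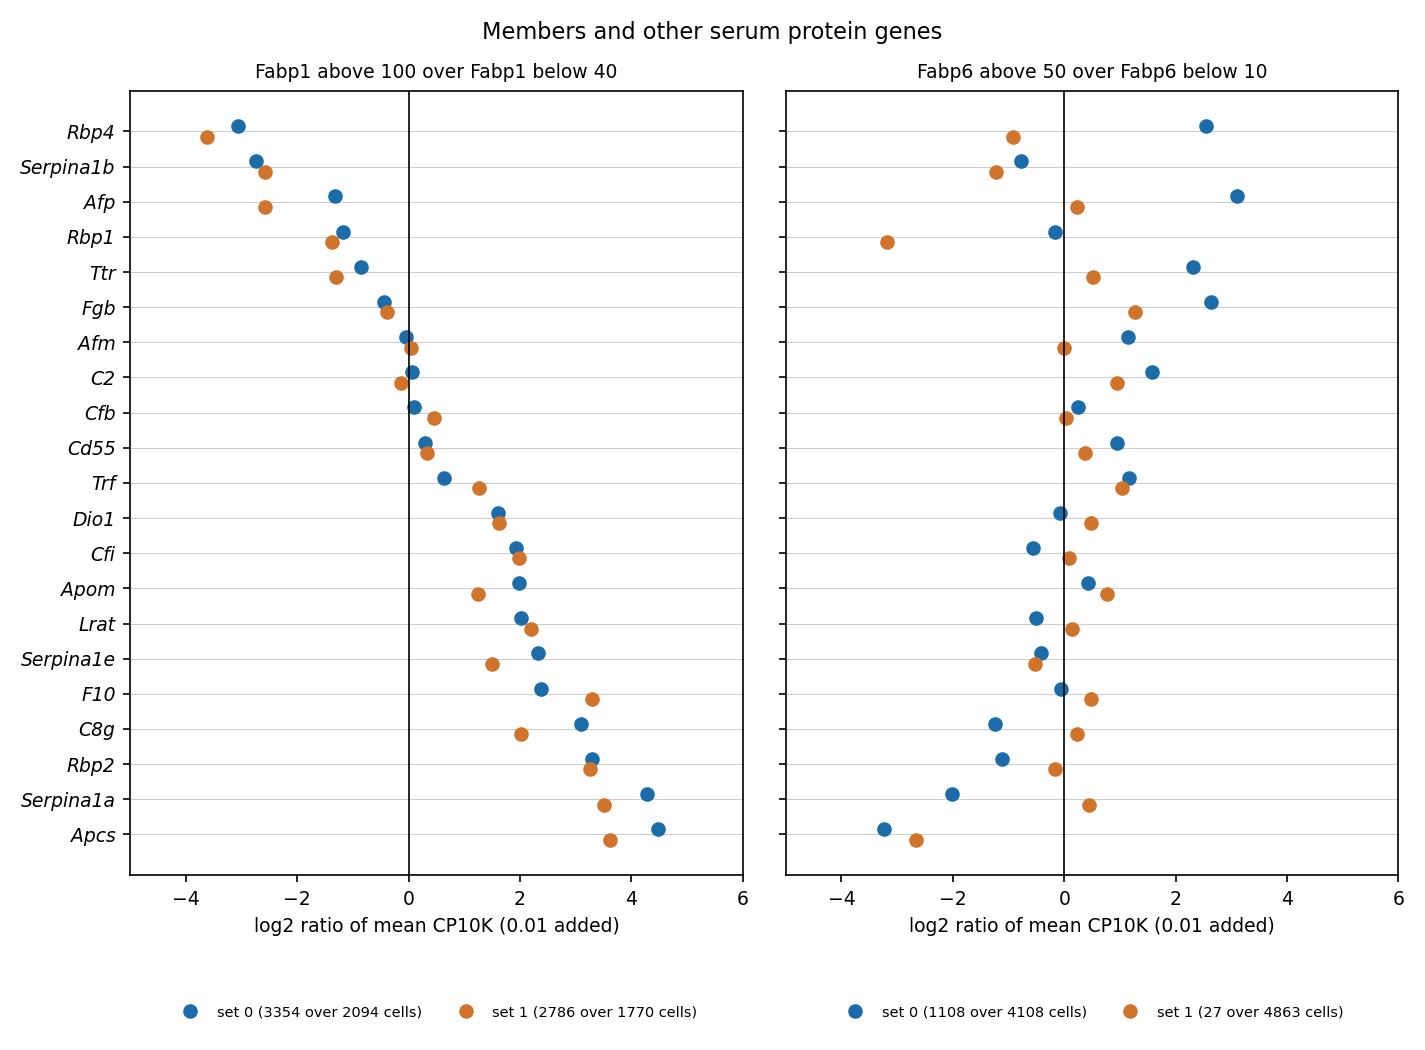
Log2 ratio of mean CP10K (horizontal axis, 0.01 added to both means) of the 4 genes and of listed serum protein and carrier genes with at least 0.2 CP10K in a Fabp1 class, for Fabp1 above 100 over below 40 (left) and Fabp6 above 50 over below 10 (right), set 0 in blue and set 1 in orange. Genes run from the lowest to the highest Fabp1 ratio of set 0, with Rbp4 at the low end and Apcs at the high end.

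Other serum protein genes showed several patterns. Trf, the iron carrier transferrin, was higher with both markers. It averaged 1.15 CP10K in Fabp1-high and 0.733 CP10K in Fabp1-low cells of set 0 and 0.873 and 0.357 CP10K in set 1, and 1.68 CP10K in Fabp6-high and 0.75 CP10K in Fabp6-low cells of set 0 and 1.27 and 0.615 CP10K in set 1. Rbp4, whose protein travels with transthyretin, averaged 0.0443 CP10K in Fabp1-high and 0.442 CP10K in Fabp1-low cells of set 0 and 0.0288 and 0.47 CP10K in set 1, with log2 ratios of -3.06 and -3.63. Its mean over cells was highest in enteroendocrine-like cells, at 2.52 CP10K in set 0 and 7.29 CP10K in set 1, but these rest on 30 and 70 UMIs. On the summed scale they stood at 0.668 (0.451 to 0.954) UMIs per 10000 in set 0 and 2.2 (1.71 to 2.78) in set 1, beside 1.02 (0.963 to 1.08) in the 476 Fabp1-low, Fabp6-high cells of set 0 where Ttr was richest. Of the albumin family, 2 of the 4 listed genes averaged under 0.01 CP10K. Afm, a vitamin E carrier, was level over Fabp1 (-0.04 in set 0, 0.05 in set 1). By Fabp6 it averaged 0.442 CP10K in Fabp6-high and 0.196 CP10K in Fabp6-low cells of set 0. In set 1 Afm was level there too, at 0.291 and 0.292 CP10K. Over cells, Afm correlated with Afp at 0.32 in set 0 and 0.33 in set 1. Fgb averaged 1.13 CP10K in Fabp6-high and 0.173 CP10K in Fabp6-low cells of set 0, a log2 ratio of 2.64, and 0.761 and 0.312 CP10K in set 1, a ratio of 1.26. Fga, another fibrinogen chain, averaged 0.407 and 0.0849 CP10K in these classes of set 0.

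Along Fabp1, the coagulation factor gene F10 averaged 2.11 CP10K in Fabp1-high and 0.397 CP10K in Fabp1-low cells of set 0 (log2 ratio 2.38) and 2.22 and 0.219 CP10K in set 1 (3.29). By Fabp6 it was nearly level in set 0, at 1.38 CP10K in Fabp6-high and 1.44 CP10K in Fabp6-low cells. Serpina1a had ratios of 4.28 in set 0 and 3.52 in set 1, near those of Apcs, but near-identical copies make counts of single Serpina1 genes uncertain: Serpina1b ran the other way (-2.74 and -2.57) and was highest in goblet-like cells, at 3.11 CP10K in set 0 and 4.97 CP10K in set 1. Of 24 complement genes beside C8g, 4 were tested in each set. Cfi, complement factor I, was at least 2-fold higher in Fabp1-high cells of both (ratios 1.94 and 1.99), and C2, Cfb and Cd55 were neither 2-fold higher nor lower by Fabp1. By Fabp6, C2 averaged 0.961 CP10K in Fabp6-high and 0.317 CP10K in Fabp6-low cells of set 0, and 0.792 and 0.408 CP10K in set 1. In these classes of set 0, Cd55 averaged 0.452 and 0.23 CP10K, Cfb 0.519 and 0.435 CP10K, and Cfi 0.527 and 0.783 CP10K. C2 correlated with Afp at 0.56 in set 0 and 0.48 in set 1. Of 23 serpin and coagulation genes, 3 of 4 tested in set 0 and 3 of 5 in set 1 were at least 2-fold higher (F10, Serpina1a and Serpina1e in both), and 0 and 1 (Serpina1b) lower. Of all genes tested, 4.94% and 5.2% were higher and 12.3% and 11.1% lower, and the list had medians of 2.36 and 1.5 beside the -0.18 and -0.15 of all genes tested. The list was drawn up with earlier results known, and nothing particular to it is read from these counts.

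Factors known to drive liver genes were present in the epithelium. Of 22 listed, 14 were tested in each set, and 2 were at least 2-fold higher and 0 lower in Fabp1-high cells in each, beside 4.94% higher and 12.3% lower of all genes tested in set 0 and 5.2% and 11.1% in set 1. The list's medians were -0.09 in set 0 and 0.14 in set 1. The higher ones were Creb3l3, a factor of lipid metabolism genes (log2 ratios 1.65 and 1.81), and Onecut2 (1.37 and 1.23). Hnf4a averaged 0.896 CP10K in Fabp1-high and 1.17 CP10K in Fabp1-low cells of set 0. Cebpa averaged 0.632 and 0.775 CP10K in these classes. Both were thus read at similar levels in the 2 Fabp1 classes of set 0. In set 1 Cebpa averaged 0.917 CP10K in Fabp1-high and 0.804 CP10K in Fabp1-low cells. By Fabp6, Hnf4a averaged 1.36 CP10K in Fabp6-high and 0.864 CP10K in Fabp6-low cells of set 0. Maf, another listed factor, averaged 3.62 and 1.85 CP10K in these classes of set 0 and 3.38 and 1.91 CP10K in set 1. It correlated with Afp at 0.40 in set 0 and 0.33 in set 1. Onecut2 went with low Fabp6, at 0.0598 CP10K in Fabp6-high and 0.687 CP10K in Fabp6-low cells of set 0 and 0.254 and 0.87 CP10K in set 1. Zbtb20, known in mouse liver as a repressor of Afp after birth, averaged 0.0969 CP10K in Fabp1-high and 0.196 CP10K in Fabp1-low cells of set 0, and 0.0814 and 0.139 CP10K in set 1.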

How the data were processed

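The deposited table gives, per cell and gene, a signal that the authors scaled to 10000 per cell (CP10K), from droplet-based 3′ libraries. Salmon 0.14.1 with alevin, Scanpy 1.6.0 and build GRCm38 are named in the submitters' processing notes. UMIs were recovered by dividing a cell's values by its most frequent nonzero value, and a median of 94.9% of a cell's values came out whole within 0.01. Levels are means over cells, with 0.01 added in log2 ratios. Sums of UMIs carry exact Poisson and shares exact Clopper-Pearson 95% intervals, which cover counting error only. Shares were taken after thinning to 8000 UMIs, which left out 34 cells of set 0 and 44 of set 1. A gene was called at a 2-fold difference of class means. No doublet caller was run, and leaving out the 5% of cells with most UMIs was an alternative. Goblet-like cells had Muc2 and Spink4 above 0 and at least 5 CP10K of Agr2, and enteroendocrine-like cells at least 5 CP10K of Chga plus Chgb. The members and the gene lists were chosen with earlier results of these data known. The named genes were the 4 members, listed genes of at least 0.2 CP10K in a class, and the 5 genes most like and 3 most unlike each member. Some genes that this rule names are not reported here. Python 3.11.15, NumPy 2.4.6, SciPy 1.17.1 and matplotlib 3.10.9 were used.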

Additional observations from a re-analysis of the deposited data

How the results depend on the processing

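Counts below are for set 0 and then set 1. With 0.1 added in place of 0.01, genes lower by Fabp1 numbered 453 of 5606 and 411 of 5690, higher by Fabp6 112 of 5409 and 119 of 5633, and lower by Fabp6 176 and 337 of those. Of the 4 genes, 1 was then called higher by Fabp1 in set 1, where 204 of the 5690 genes were, and 1 and 0 lower by Fabp6. A minimum of 1 CP10K gave 122 and 125 genes higher and 204 and 183 lower by Fabp1, and 82 and 53 higher and 71 and 138 lower by Fabp6. No minimum gave 474 and 516, 1796 and 1704, 384 and 1172, and 843 and 2552 in the same order. With totals free of mitochondrial, ribosomal and haemoglobin genes, the median over all genes moved by -0.17 and -0.15 by Fabp1, and the calls split into 246 and 264 higher and 1110 and 999 lower, beside 277 and 296 higher and 691 and 629 lower without that step. Lower by Fabp6 were then 423 genes in set 0. No member changed direction under either scaling. Without the other marker classes, set 0 had 448 genes and 2 of the 4 lower by Fabp1, and 157 genes lower by Fabp6.

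The Fabp6 contrast of set 0 within Fabp1 below 40, 40 to 100 and above 100 gave 651, 660 and 104 genes higher and 858, 597 and 87 lower, and 0 and 1 of the 4 lower in the first 2 classes. The C8g log2 ratio then reversed to 0.88 and 0.74 in those classes. In set 1 within Fabp1 above 100, 2 of the 4 were higher, where 213 of 5401 genes tested were, and 185 genes were lower. C8g reversed to -0.38 there. It also reversed to -0.0658 with Fabp6 limits of 20 and 60. The lower Fabp1 classes of set 1 held no Fabp6-high cell and gave no value. With shared barcodes, set 1 had 2 of the 4 higher, 0 lower and 275 genes lower by Fabp6. Where the number of genes tested or called is not given beside them, nothing is read from calls of the 4 in this section.

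The correlation of Afp and Ttr in set 0 was 0.61 by Spearman's rho on thinned counts and 0.76, 0.74 and 0.56 within the Fabp1 classes. In set 1 it was 0.54 by Spearman's rho, 0.49 by rho on thinned counts, and 0.77 and 0.50 within the outer classes. For Apcs and C8g it was 0.40 by Spearman's rho, 0.32 by Pearson's r on thinned counts and 0.29 by rho on thinned counts in set 0, with -0.00437, 0.0933 and 0.40 within the classes. In set 1 it was 0.14 by Pearson's r and 0.13 by rho on thinned counts, and -0.0168 and -0.0547 in the lower classes. All 16 shares of cells moved with the thinning depth. The causes were not tested. No paired analysis was possible because the cells carry no replicate number.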
